A study of Mus musculus with 36 samples.

Results

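The regions described here are the 20 kb stretches (bins) of the mouse autosomes that replicated late in each of 3 replication timing (RT) maps. Members were chosen by state alone: a bin counted when the CH12 map, the primary B cell map and the mouse embryonic fibroblast (MEF) map all placed it in their late state, and bins made only of unknown bases were dropped. Of 119839 autosomal bins with a state in every map, 29652 were late in all 3, or 24.7% (Wilson 95% interval 24.5 to 25.0), covering 593 Mb of the mm9 genome. Because the states chose the bins, counts of late bins are a description of the selection. The intervals cover counting error alone, since a bin and its neighbour tend to share a state.

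The maps come from Repli-seq, in which cells label newly made DNA with BrdU, are sorted by DNA content into an early and a late S phase fraction, and have the labelled DNA of each fraction sequenced. CH12 is a mouse B cell lymphoma line, and the CH12 map is from cells carrying the shLacZ short hairpin RNA, a lentiviral control hairpin against a bacterial gene, after puromycin selection. The primary B cell map is from activated splenic B cells of WT mice, whose age the labels do not give. For the libraries of both B cell maps the labels name IL4, CD40 and TGF beta stimulation, in an entry that speaks of CH12 cells. Each B cell map was made from 4 libraries, 2 of the early and 2 of the late fraction, out of 36 libraries in 7 groups, and the remaining groups were not used here. The MEF map, labelled WT, is tied to no library of this series, and the study lists its MEF data as taken from an earlier public data set, so its depth, growth conditions and preparation are not given in the sources used here. The methods speak of the fraction replicates as technical, sorted apart for each sample, and elsewhere of replicates from separately thawed vials of CH12 cells, so what the replicates are was not settled. The authors pooled them ahead of the state calls. Each cell type is therefore 1 map, no replicate error can be given, and no difference between cell types was tested.

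During S phase the genome is copied in a reproducible order. Open, gene-rich and transcribed chromatin tends to replicate early, whereas compact chromatin near the nuclear lamina tends to replicate late. Part of the late genome changes its timing as cells differentiate, and part stays late in most cell types. Late chromatin shared between cell types is known for low GC content, few active genes, long genes of the nervous system and clusters of olfactory receptor genes.

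The maps number their states without naming them. In each map 1 state never touched 1 of the other states, in 0 places, so these 2 were taken as the ends of the scale and the remaining state as middle. The end with the lower GC content and fewer gene starts was read as late. The GC content of the late state was 39.5% in CH12, 39.0% in primary B cells and 38.4% in MEFs, against 45.8%, 45.3% and 45.3% in the early state. Gene starts per Mb in the late state were 3.80, 2.94 and 3.37, against 18.9, 17.7 and 16.2 in the early state. GC content and gene density thus took part in naming the states.

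The sequences below are the 250 bases before the annotated start of a protein-coding gene, on the gene's coding strand in mm9, with each CpG dinucleotide in capitals. They are shown because gene promoters in the shared late regions ranged from CpG-free to CpG-rich. The first 4 belong to the gene start nearest the centre of each of the 4 longest late runs, and the next 2 to the same choice in the 2 longest runs early in all 3 maps. Olfr1138, chosen after its values were seen, is the gene start nearest the centre of the run with the most olfactory receptor genes.
Slitrk6, chr14:111154372-111154621 (minus strand): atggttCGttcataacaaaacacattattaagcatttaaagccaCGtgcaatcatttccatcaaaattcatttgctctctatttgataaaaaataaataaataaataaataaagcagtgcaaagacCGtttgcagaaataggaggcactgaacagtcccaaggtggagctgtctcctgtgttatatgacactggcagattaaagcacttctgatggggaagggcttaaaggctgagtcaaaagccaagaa
Cdh9, chr15:16707606-16707855 (plus strand): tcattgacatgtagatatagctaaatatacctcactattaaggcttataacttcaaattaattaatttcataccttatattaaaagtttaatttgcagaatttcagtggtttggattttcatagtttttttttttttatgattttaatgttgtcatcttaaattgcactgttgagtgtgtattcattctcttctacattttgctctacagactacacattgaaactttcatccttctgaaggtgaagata
Cntnap5b, chr1:101669092-101669341 (plus strand): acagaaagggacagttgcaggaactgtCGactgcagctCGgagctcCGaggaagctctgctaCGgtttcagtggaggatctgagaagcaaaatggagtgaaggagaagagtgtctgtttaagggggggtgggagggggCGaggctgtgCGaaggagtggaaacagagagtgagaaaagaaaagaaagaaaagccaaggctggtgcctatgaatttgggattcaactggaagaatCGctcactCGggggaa
Pcdh17, chr14:84843120-84843369 (plus strand): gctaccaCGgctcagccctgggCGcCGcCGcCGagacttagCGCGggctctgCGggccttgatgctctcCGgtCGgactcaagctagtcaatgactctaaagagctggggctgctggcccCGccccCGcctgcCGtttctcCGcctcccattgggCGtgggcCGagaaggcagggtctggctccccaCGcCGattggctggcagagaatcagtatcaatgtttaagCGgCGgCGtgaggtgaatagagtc
Kifc5b, chr17:27053786-27054035 (plus strand): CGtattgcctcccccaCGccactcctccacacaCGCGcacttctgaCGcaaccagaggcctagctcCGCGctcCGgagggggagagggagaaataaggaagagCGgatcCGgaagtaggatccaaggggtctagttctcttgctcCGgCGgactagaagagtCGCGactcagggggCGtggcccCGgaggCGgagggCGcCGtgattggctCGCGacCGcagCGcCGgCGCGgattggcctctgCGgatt
Smad6, chr9:63869867-63870116 (minus strand): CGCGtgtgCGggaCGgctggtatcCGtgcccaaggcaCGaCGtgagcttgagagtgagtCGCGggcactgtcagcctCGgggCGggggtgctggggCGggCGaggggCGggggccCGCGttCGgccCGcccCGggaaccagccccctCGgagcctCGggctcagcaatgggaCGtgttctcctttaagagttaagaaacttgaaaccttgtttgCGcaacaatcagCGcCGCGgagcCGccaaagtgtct
Olfr1138, chr2:87578480-87578729 (minus strand): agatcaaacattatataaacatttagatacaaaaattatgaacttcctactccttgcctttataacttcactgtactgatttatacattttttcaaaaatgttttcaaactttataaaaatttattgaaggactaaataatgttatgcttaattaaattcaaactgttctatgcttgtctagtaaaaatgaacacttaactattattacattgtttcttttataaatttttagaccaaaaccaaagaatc

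The 4 late windows held 3 CpG (Slitrk6, a leucine-rich repeat transmembrane protein of neurons), 0 (Cdh9, a cadherin), 8 (Cntnap5b, a contactin-associated protein of the neurexin family) and 21 (Pcdh17, a protocadherin). Both early windows held 27 CpG (Kifc5b, a kinesin, and Smad6, an inhibitor of BMP signalling), and the Olfr1138 window held 0. The GC content of the windows was 37.2%, 27.2%, 52% and 64.8% for the late genes, 66% and 66.8% for the early genes and 22.8% for Olfr1138. Pcdh17 therefore had a promoter close in composition to the early examples although it lies in a late run of 6500 kb.

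The shared late bins made up very different portions of the late genome of each map. In CH12, 59905 bins (50.0%) were late, and 49.5% of them were late in all 3 maps. In primary B cells, 45905 bins (38.3%) were late, of which 64.6% were shared. MEFs had the fewest late bins, 34853 (29.1%), and 85.1% of them were shared. Of the late domains, 351 of 690 in CH12, 388 of 608 in primary B cells and 420 of 461 in MEFs held at least 1 shared bin. Late domains with a shared bin were longer than those without in every map, with medians of 2000 against 560 kb in CH12, 1410 against 460 kb in primary B cells and 1050 against 340 kb in MEFs. A longer domain has more bins in which a member can fall.

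The share of late-in-all bins differed between autosomes, with a mean of 24.3% ± 5.93 (SD over 19 autosomes). It was lowest on chromosome 19 (12.9%), chromosome 11 (13.4%) and chromosome 13 (14.7%) and highest on chromosome 14 (32.3%), chromosome 3 (31.4%) and chromosome 16 (29.8%). Cut from the centromere into 10 equal parts, the autosomes had a share of 27.2% in part 1, 30.4% in parts 5 and 6, and 13.5% in part 10. Parts 7 and 9 were also low, at 18.6% and 18.3%. Part 10 lay above the autosome's own share on 3 of 19 autosomes. The outermost 1 Mb of known sequence was late in all 3 maps for 17.3% of its bins at the distal end, with 0 such bins on 13 autosomes, and for 16.5% at the centromeric end, with 0 on 14.

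**Figure D1:**
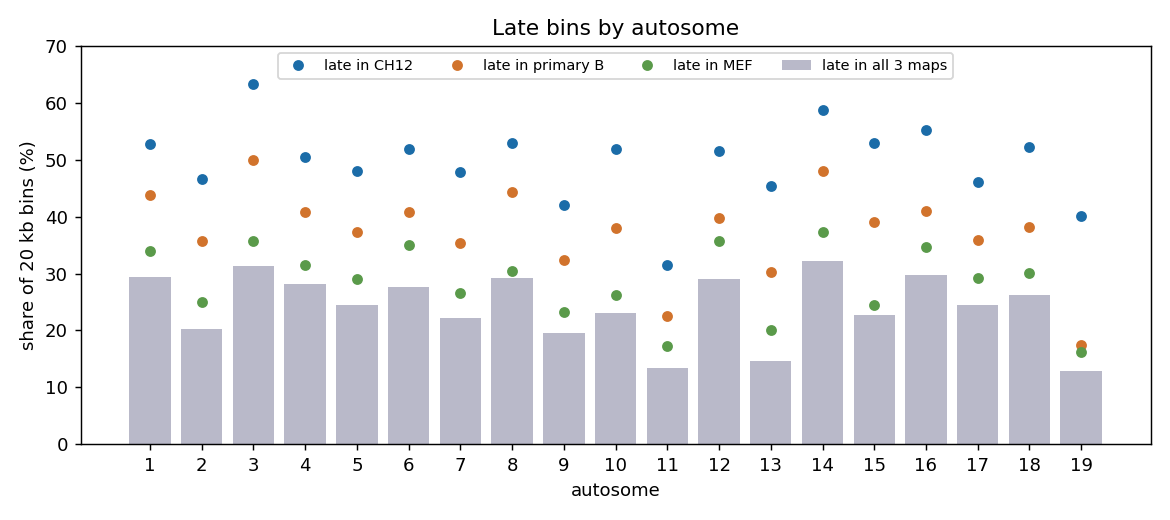
Share of 20 kb bins (%, vertical axis) on each autosome that were late in all 3 maps (bars) and late in the CH12, primary B and MEF maps (points). The bars run from 12.9% on chromosome 19 to 32.3% on chromosome 14, and on each autosome the CH12 point is the highest.

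Merged with their neighbours, the members formed 491 runs with a median length of 720 kb (quartiles 360 and 1560 kb, range 20 to 8280 kb). Of the runs, 89 were shorter than the 300 kb over which the RT values had been smoothed, and these held 2.61% of the bins. Runs of at least 1 Mb numbered 198 and held 78.2% of the bins, the 48 runs of at least 3 Mb held 35.2%, and the 13 runs of at least 5 Mb held 13.4%. The 83 longest runs, 16.9% of all, together reached 50% of the member bins.

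**Figure D2:**
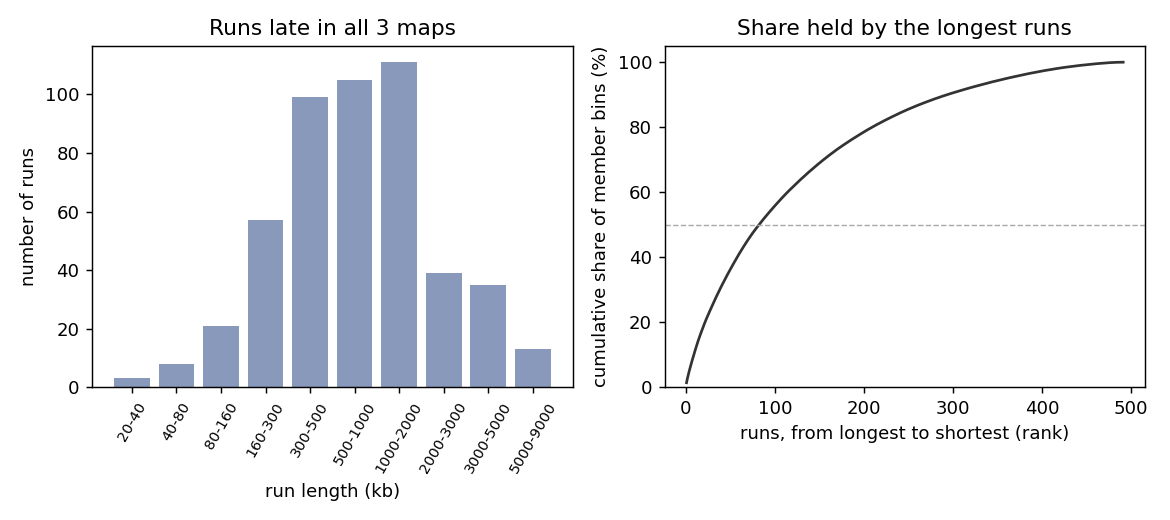
Left, number of runs (vertical axis) by run length in kb, in unequal length classes. Right, cumulative share of member bins (%) held by the runs ranked from longest to shortest, with a dashed line at 50%, which the curve reaches at the 83 longest of 491 runs.

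The longest runs held few genes, and adhesion genes of the nervous system were among them. The longest, chr14:107020001-115300000 (8280 kb, GC content 36.6%), held 6 protein-coding gene starts, among them Slitrk1, Slitrk5 and Slitrk6, which encode neuronal transmembrane proteins that act in neurite growth and at synapses. The others were Rpl27a-ps2, Gm6280 and Tpm3-rs7. The next run, chr15:13080001-20960000 (7880 kb), held 4 starts, and the genes wholly inside it were the cadherins Cdh9 and Cdh10 and Acot10, an acyl-CoA thioesterase. The run chr1:100260001-107100000 (6840 kb) held 3 genes, the organic anion transporter gene Slco6d1, Cntnap5b and the cadherin Cdh20. In the run chr14:80400001-86900000 (6500 kb), the 2 genes were Olfm4, a secreted glycoprotein known from intestinal crypts, and Pcdh17. The next, chr3:43120001-49260000 (6140 kb), held Pcdh10, Pabpc4l and 1700018B24Rik.

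Runs ranked 6 to 10 measured 5820 to 5400 kb. They lay on chromosomes 8, 1, 1, 17 and 14 and included Cdh8, Bai3 (an adhesion G protein-coupled receptor of the brain), Cdh7 and Cdh19, and Pcdh20. These 10 runs had GC contents from 36.6% to 38.1% and between 0.31 and 1.04 protein-coding gene starts per Mb. Runs 3, 4, 6 and 10 coincided exactly with a MEF late domain, at 6840, 6500, 5820 and 5400 kb, whereas the CH12 late domains around them reached 10060, 7120, 7660 and 6980 kb.

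The 5 runs of at least 1 Mb with the most gene starts per Mb all held multigene clusters. The run chr2:85360001-89800000 (4440 kb) held 203 protein-coding gene starts, 45.7 per Mb, of which 201 carried olfactory receptor names, 3 of them marked as pseudogenes. The run chr9:37840001-39800000 held 78 starts, 76 of them olfactory receptors, and chr14:49980001-51020000 held 18, of which 15 were. The run chr16:88580001-89640000 held 33 starts with 19 keratin-associated protein genes, which encode hair matrix proteins. The run chr5:87240001-88560000 held 26 starts, among them 9 Ugt genes for glucuronosyltransferases, 5 casein-family (Csn) genes and 3 sulfotransferase (Sult) genes. Over the 198 runs of at least 1 Mb the median was 0.77 starts per Mb, 18 runs exceeded 5 per Mb, and 32 had no protein-coding start. The longest run without one was chr5:78200001-81060000, 2860 kb long.

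Among runs of at least 1 Mb, GC content ranged from 36.0% at chr16:67080001-70240000 to 46.3% at chr15:86600001-88040000, with a median of 37.7%. The GC-rich run on chromosome 15, 1440 kb long, held 1 protein-coding gene, Fam19a5, which encodes a small secreted protein of the nervous system. Its GC content equalled that of the bins early in every map (46.3%), and it was late in all 3.

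The edges of the runs were set by 1 map at a time. Of 957 usable run edges, the first bin outside was no longer late in only 1 of the maps at 919 (96.0%). That map was MEF at 534 edges (55.8%), primary B at 307 (32.1%) and CH12 at 78 (8.15%). All 3 maps left the late state within 40 kb of each other at 18 edges (1.88%), within 100 kb at 8.15% and within 200 kb at 24.3%. These distances are below the smoothing span of 300 kb, so the smaller ones are finer than the maps resolve. Where a map did not set the edge, it stayed late for a further 440 kb in CH12, 340 kb in primary B cells and 240 kb in MEFs (medians). The first bin outside was in the middle state wherever it was not late, and it was early at 0 of 957 edges in each map, as late and early states never touched. A run was the whole late domain of CH12 in 6 cases, of primary B cells in 68 and of MEFs in 172.

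**Figure D3:**
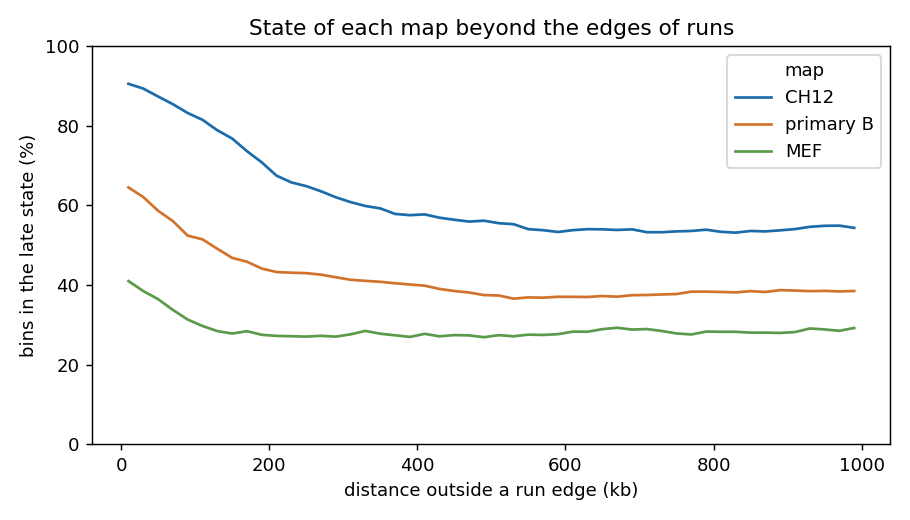
Share of bins in the late state (%, vertical axis) in each map against the distance outside the nearest edge of a late-in-all run (kb), over 957 edges in the first bin. In that bin CH12 was late at 90.5%, primary B cells at 64.5% and MEFs at 41.0%, and distant bins can belong to a neighbouring run.

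The 394 gaps counted between neighbouring runs had a median length of 1480 kb, and 61 were no longer than 300 kb. Not every neighbouring pair of the 491 runs was counted, and the shares below are of the 394. Some neighbouring runs were parted by a dropped bin of unknown bases and not by a change of state. The runs chr8:38600001-40200000 and chr8:40220001-40940000 lay in the same late domain in CH12 (3720 kb), primary B cells (3560 kb) and MEFs (2340 kb). All 3 maps left the late state somewhere in 236 gaps (59.9%). MEFs alone left it in 72 (18.3%), primary B cells alone in 24 and CH12 alone in 21. In 183 gaps no map had an early bin, so the late runs on either side were parted by middle-replicating sequence in at least 1 map.

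No sequence measure picked single bins, but GC content helped to decide which end of each map was called late, so a lower GC content than in early bins was set by that reading. GC content was lower with each further map in which a bin was late, at 44.6% in bins late in 0 maps and 41.5%, 40.2% and 38.2% in bins late in 1, 2 and 3 maps. Bins early in all 3 maps had 46.3%. Bins late in all 3 had a lower GC content than those late in 2 maps on 19 of 19 autosomes, by a mean of -1.92 percentage points ± 0.59 (SD over autosomes), and lower than early-in-all bins on 19 of 19, by -7.84 ± 1.03. Autosomes are not replicates of a condition, so these are descriptions without a test. CpG dinucleotides followed the same order, with 10.8, 8.04, 6.84 and 5.44 per kb in bins late in 0, 1, 2 and 3 maps. CpG islands, taken as stretches with at least 55% GC and an observed to expected CpG ratio of at least 0.65 over 500 bases, numbered 14.1, 5.54, 3.72 and 2.80 per Mb.

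**Figure D4:**
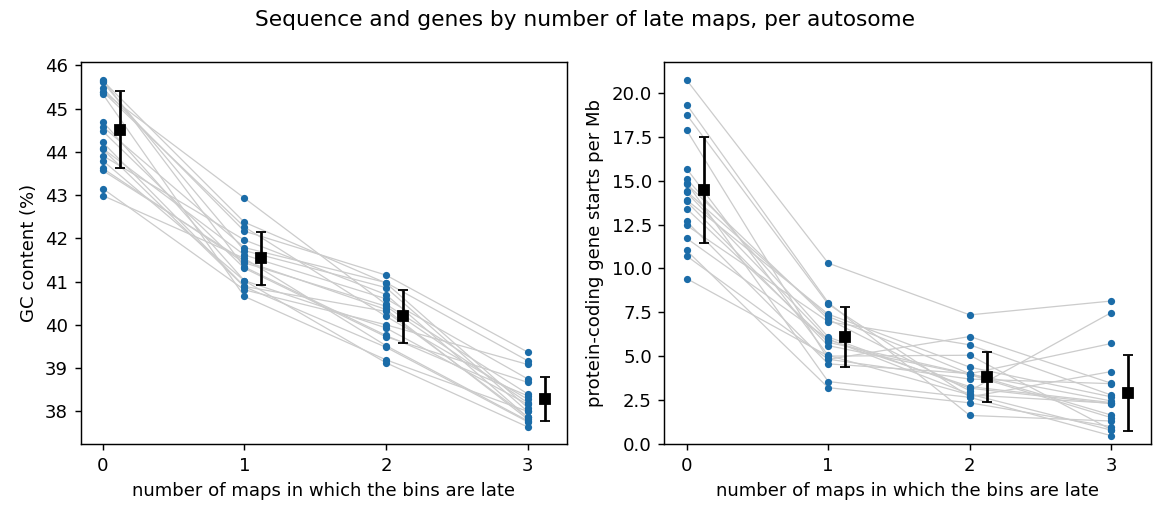
GC content (%, left) and protein-coding gene starts per Mb (right) of bins late in 0, 1, 2 or 3 maps. Each blue point is 1 of 19 autosomes, grey lines join an autosome's points, and black squares with bars are the mean and SD over autosomes. GC content was lower in bins late in 3 maps than in 2 on all 19 autosomes, whereas gene starts were lower on 15.

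Short repeats and motifs gave a less uniform picture. Tracts of at least 10 A or T bases numbered 208 per Mb in late-in-all bins and 202 in bins late in 2 maps, and were fewer in the former on 9 of 19 autosomes, so that the autosomes did not go one way. Bins late in 0 maps held 248 per Mb. CA repeats of at least 10 units went from 116 per Mb in bins late in 0 maps to 91.8 in late-in-all bins. Motifs that can form G-quadruplexes, 4 runs of at least 3 G with loops of 1 to 7 bases, numbered 266, 224, 212 and 208 per Mb in bins late in 0, 1, 2 and 3 maps.

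Composition also differed by depth within the runs. From bins less than 100 kb from a run edge to those at 100 to 300 kb, 300 kb to 1 Mb and at least 1 Mb, GC content went from 39.5% to 39.0%, 37.9% and 37.0%. Each step was downward on 19 of 19 autosomes. Protein-coding gene starts went from 4.16 to 3.56, 2.36 and 1.73 per Mb. The bins just outside, within 100 kb of a run, had a GC content of 39.8% and 5.05 starts per Mb, so the outermost members differed little from the sequence beside them. Longer runs were also poorer in GC. GC content was 40.3% under 300 kb, 39.6% from 300 kb to 1 Mb, 38.2% from 1 to 3 Mb and 37.3% from 3 Mb. Bins far from an edge lie only in long runs, so depth and run length were not told apart.

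Members were most frequent among bins of low GC content, but not all such bins were members. In the lowest quintile of autosomal bins by GC content (up to 38.2%), 68.5% were late in all 3 maps, and in the next quintiles 34.9%, 13.97%, 4.89% and 1.51% were. Single member bins had a median of 37.9% (5th to 95th percentile 35.0% to 42.7%), and 234 of them (0.789%) exceeded the median of early-in-all bins. Within each quintile the members held fewer gene starts than the other bins, and also had a slightly lower GC content, from 36.6% against 37.1% in the lowest to 47.0% against 48.4% in the highest. In the lowest quintile the early-in-all bins held 2.53 starts per Mb, close to the members. The values were 2.42 against 3.80 per Mb in the lowest quintile, 2.46 against 4.79 in the second, 4.52 against 7.50 in the third, 5.08 against 10.7 in the fourth and 4.13 against 20.5 in the highest, where 363 member bins lay. They were fewer on 16, 18, 17 and 16 of 19 autosomes in the first 4 quintiles and on 15 of the 16 autosomes with members in the highest.

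Genes were sparse in the shared late regions. Of 21418 autosomal protein-coding genes, 1655 (7.73%) started in member bins, against 24.7% of bins, while 45.8% started in bins early in all 3 maps. The density was 2.79 starts per Mb, against 20.98 in early-in-all bins and 3.78 in bins late in 2 maps. Of the member starts, 658 (39.8%) had names of olfactory or vomeronasal receptor genes, pseudogene-marked names (-ps) included, and such names made up 6.66% of all autosomal starts. Without these receptors the density was 1.68 per Mb. The density was above that of bins late in 2 maps on chromosomes 2, 7, 9 and 17, at 7.49, 8.15, 5.73 and 4.14 against 3.04, 7.36, 4.01 and 2.69 per Mb. Bins crossed by no protein-coding gene were 75.1% of the members, 21.9% of early-in-all bins and 50.2% of all bins. Exons of protein-coding genes covered 0.607% of the member sequence and 7.62% of early-in-all sequence.

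Over all annotated gene types, 3490 of 34653 genes (10.1%) started in members. Pseudogenes (19.98% of 4055), snoRNA genes (19.9% of 1458) and snRNA genes (18.6% of 1331) lay in members more often than protein-coding genes. Long intergenic noncoding RNA genes (lincRNA) did so least among the larger types, at 3.25% of 1232. Many annotated small RNA genes are copies scattered over the genome, and these were not told apart from the active genes.

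Protein-coding genes that started in members had a median length of 2.66 kb, against 15.2 kb for early-in-all starts, and 42.8% had a single exon, against 5.38%. Without olfactory and vomeronasal receptors the median was 8.65 kb and the single-exon share 20.4%. By length, 13.2% of genes under 10 kb, 3.13% of those from 10 to 100 kb, 6.78% from 100 to 500 kb and 32.4% of genes of at least 500 kb (61 of 188) started in members. Without the receptors the share under 10 kb was 7.37%, near the 6.79% from 100 to 500 kb and above the 2.53% from 10 to 100 kb. Over all genes without the receptors it was 4.99%, so the excess of short genes rested on receptor genes only in part. Of those 188 giants, 26 lay wholly in late-in-all bins, 78 in part and 84 not at all. Early-in-all bins held the start of 2.66% of them.

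The longest genes that lay whole inside a run were Ptprd (2271 kb, a receptor tyrosine phosphatase of synapses), Lrp1b (2058 kb, an LDL receptor-related protein) and Csmd1 (1643 kb). They were followed by Cntn5 (1244 kb, a contactin), Csmd3 (1211 kb), Dab1 (1125 kb, an adaptor of Reelin signalling) and Nrg3 (1104 kb, a neuregulin). Dcc (1092 kb, a netrin receptor) and Grm7 (922 kb, a metabotropic glutamate receptor) were also among the 10 longest.

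Promoters in members were poor in CpG. Over the 250 bases before the start, the median was 1 CpG in 1655 late-in-all promoters and 12 in 9804 early-in-all promoters, with 9 over all 21413 promoters without unknown bases. At least 10 CpG were found in 11.4% of late-in-all and 59.6% of early-in-all promoters, and 3 or fewer in 77.5% and 17.1%. The Pcdh17 window shown above was thus among 189 CpG-rich exceptions. Without olfactory and vomeronasal receptors the late-in-all median was 2 CpG, and 18.9% held at least 10. Promoters of genes late in 2, 1 and 0 maps had medians of 3, 4 and 11. The letters TATAAA, searched on both strands, occurred in 31.8% of late-in-all and 7.67% of early-in-all windows and in 12.4% of all. Without olfactory and vomeronasal receptors the shares were 24.0% and 7.62%. The median GC content of the windows was 39.2% and 58%, and letters made only of A and T were not set against that difference. Many receptor gene models begin at the coding start. ATG stood at the annotated start of 64.4% of the receptor models in members, and for these the window is not known to be the promoter.

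Among the chemosensory receptor families, the share of genes that started in members ranged from 0 to 71.4%. The gene lists, like the regions, were chosen with results of these data known, and their shares are read against the 7.73% of all protein-coding genes. The receptor lists leave out pseudogene-marked names. Of the olfactory receptors, G protein-coupled receptors of the nasal epithelium, 526 of 1081 (48.7%, interval 45.7 to 51.6) started in members, in 14 runs. The share was 84.0% of 282 genes on chromosome 2, 81.1% of 127 on chromosome 9 and 65.3% of 49 on chromosome 17. It was 35.2% of 233 on chromosome 7 and 0 of 35 on chromosome 16, where 25 were late in MEFs and 0 in primary B cells. Of the vomeronasal receptors, which detect pheromones, 124 of 319 (38.9%) started in members. Of the bitter taste receptors (Tas2r), 25 of 35 (71.4%) did, 24 of them in 1 run on chromosome 6. The trace amine-associated receptors, also receptors of the nose, were the contrast: 0 of 15 did, which allows a share of up to 20%, and all 15 were late in 0 maps. The authors kept reads with a unique alignment, and how evenly reads could be placed in clusters of similar genes was not measured.

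Lists of adhesion and receptor genes of neurons also had starts in members, in shares that differed between lists. Of 64 gene models for neuronal adhesion molecules, 31 (48.4%, interval 36.6 to 60.4) started in members, spread over 27 runs, with a median of 2 maps late against 0 for all genes. Examples were Cntnap2 (2241 kb), Nrxn3 (1612 kb), Lrrc4c, a synaptic leucine-rich repeat protein, Cntn5 and Odz2 (1229 kb, a teneurin). These examples are long, and of all genes of at least 500 kb 32.4% (interval 26.2 to 39.4) started in members. Gene length and list were not told apart. A further 14 were late in 2 maps, and 10 started in bins early in all 3. Of 9 non-clustered protocadherins, 6 started in members in 6 different runs (Pcdh7, Pcdh9, Pcdh10, Pcdh15, Pcdh17 and Pcdh20), whereas Pcdh18 was late in both B cell maps and middle in MEFs. Of 23 cadherins, 7 did (Cdh6, Cdh7, Cdh8, Cdh9, Cdh10, Cdh19 and Cdh20), 7 were late in 2 maps and 9 in 0. As many cadherins, 7, started in bins early in all 3 maps.

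The subunits of the GABA-A receptor, the main inhibitory chloride channel of the brain, lay in members for 11 of 16 genes (68.8%, interval 44.4 to 85.8). They lay in 3 runs, with up to 4 genes in a run, and genes within a cluster share their run, so that these are 3 locations. Of 25 glutamate receptor genes 6 (24%, interval 11.5 to 43.4) started in members, in 6 runs (Grm3, Grm5, Grm7, Grik2, Gria4 and Grin3a). Of 14 ephrin receptors 4 (28.6%, interval 11.7 to 54.6) did, namely Epha5, Epha6, Epha7 and Ephb6. Of 41 voltage-gated potassium channel gene models 6 did, among them Kcnd2, Kcnh7 and Kcnb2. Their share was 14.6%, with an interval (6.88 to 28.4) that includes the 7.73% of all genes. Early in all 3 maps were the starts of 7 glutamate receptor genes (28%), 3 ephrin receptors (21.4%) and 16 potassium channel models (39.0%). Over all protein-coding genes that share was 45.8%.

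**Figure D5:**
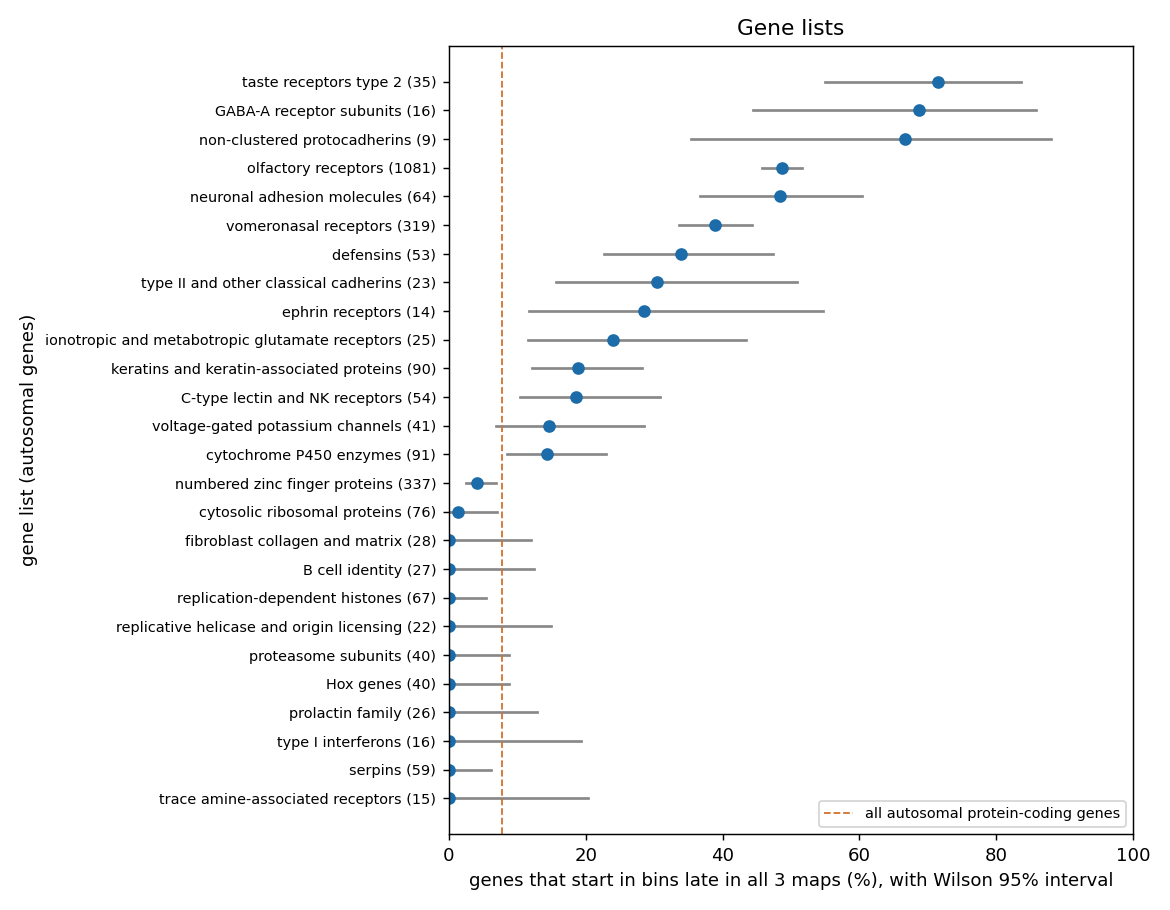
Share of each gene list (rows, number of autosomal genes in parentheses) that starts in bins late in all 3 maps (%, points) with Wilson 95% intervals (grey bars, counting error only). The dashed line marks the 7.73% of all autosomal protein-coding genes. Bitter taste receptors at 71.4% are highest, and 10 lists are at 0.

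Several clustered families of barrier and defence tissues also had members, each in few runs. Of 53 defensins, antimicrobial peptides, 18 (34.0%) started in members in 4 runs. Of 90 keratin and keratin-associated genes 17 did, all of them keratin-associated genes with a hyphenated number in the chromosome 16 run above, where Krtap13 and Krtap15, outside the list, make up the 19. Of 54 C-type lectin and NK receptor genes 10 did, 9 of them Klra (Ly49) receptors of natural killer cells in 1 run on chromosome 6. Of 91 cytochrome P450 genes 13 (14.3%) did, in 4 runs, among them Cyp7b1, Cyp2c38 and Cyp2j8. Of 337 numbered zinc finger proteins, 14 (4.15%, interval 2.49 to 6.85) did, spread over 10 runs. That is below the 7.73% of all genes, but the interval includes the 4.99% found without olfactory and vomeronasal receptors.

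Some clustered families had no start in members, with or without late replication in part of the maps. Of the prolactin family, hormones of pituitary and placenta, 0 of 26 started in members, which allows a share of up to 11.5%. Late in primary B cells were 22 of them and in CH12 18, but in MEFs 0. Of 59 serpins, protease inhibitors, 0 did (up to 5.08%), with 14 late in CH12, 8 in MEFs and 0 in primary B cells. Of 16 type I interferon genes 0 did (up to 18.8%), and all were late in 0 maps.

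In the lists of genes that every cell uses or that define the mapped cell types, 1 start lay in members. It is to be read against 7.73% of all genes. Where the limit given for a list with 0 exceeds that share, the list is too small to set it apart from all genes. The limit takes genes as independent, whereas genes of a cluster, such as Hox and histone genes, lie together. A limit below that share therefore does not set such a list apart either. For the Hox and proteasome lists the Wilson upper bound was 8.76%, above that share. Of 76 cytosolic ribosomal protein gene models 1 started in members (Rpl10l, a copy of Rpl10 used in the male germ line). That count leaves out Rpl27a-ps2, which lies in the longest run. By name stem alone, 6 of 84 Rpl genes (7.14%) and 1 of 54 Rps genes started in members, so the low share depends on how the list was drawn. Of 40 proteasome subunits 0 did (up to 7.5%), of 22 genes of the replicative helicase and origin licensing 0 (up to 13.6%), and of 67 replication-dependent histones 0 (up to 4.48%). Of 40 Hox gene models 0 did (up to 7.5%), and all 40 were late in 0 maps. Of 27 B cell identity genes 0 did (up to 11.1%), and only Bcl6, a germinal centre repressor, was late in any map, in CH12. Of 28 fibroblast collagen and matrix genes 0 did (up to 10.7%). Of these, 11 were late in CH12, 6 in primary B cells and 0 in MEFs, with Col3a1, Col5a2, Prrx1 and Postn late in both B cell maps and early in MEFs. A state is not an expression level, and expression was not measured here.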

How the data were processed

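The states were deposited by the authors as domain maps, whose value column holds a state number (0, 1 or 2), a category and not a level. Per the labels and methods, for the B cell maps, reads were trimmed with Trim Galore 0.6.5, aligned to mm9 with BWA 0.7.17 and filtered for unique alignments with SAMtools 1.9. Replicates were merged, duplicates removed, and log2 early to late ratios taken in 20 kb windows with deepTools, smoothed over 300 kb and split into 3 states by a hidden Markov model. The smoothing span limits how sharply an edge can be placed, and the maps carry no read depth, so depth is unknown. Here, bins were read from the maps, merged into runs, and compared with the mm9 genome and the GENCODE M1 gene annotation in Python 3.11.15 with numpy 2.4.6 and scipy 1.17.1. A gene was placed by its annotated start. Intervals are Wilson 95%, and the limit at 0 is 3 counts over the total. Gene names follow the annotation and can be old. The functions were tested on simulated data and recovered 9 of 9 known values. The genome file marks no repeats, so the planned repeat share was not measured. Named genes are those in the 10 longest runs, the 10 longest genes inside runs, the 5 densest runs, and up to 6 examples a list by maps late and then length; others (the further genes of the adhesion and fibroblast lists, Bcl6, Pcdh18, Klra and Fam19a5) were chosen after their values were seen. Some genes that this rule names are not reported here. The members and gene lists were chosen with earlier results of these data known.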

Additional observations from a re-analysis of the deposited data

How the results depend on the processing

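No paired analysis was possible because each cell type has 1 map, with replicates merged, and the fraction libraries could not be left out in turn. Of 110 alternative values of 8 main results, 95 stayed within the spread or interval, or for counts within 1.5 times the reported number, and 15 moved. Within these limits the number of runs ranged from 402 (runs of at least 300 kb) to 636 (without the MEF map), and gene starts were 1.68 per Mb without receptors, within the wide spread over autosomes. The 95 overstate how much was tested. They include 57 values with 1 autosome left out, which had little room to move. Dropping the 3 Mb nearest the centromere gave values identical to the main ones, so that setting tested nothing. These were a share of 24.7%, a GC content of 38.2%, 2.79 gene starts per Mb and 5.44 CpG per kb. The share of late-in-all bins was 26.1% with the X chromosome, 35.2% without bins within 100 kb of a boundary, and 25.2%, 27.2% and 36.8% when the CH12, primary B or MEF map was not required to be late. Without the MEF map the GC content was 38.9% and CpG 5.95 per kb. With all gene types, gene starts were 5.88 per Mb. The share of protein-coding gene starts in members was 8.12% with the X chromosome, 4.99% without olfactory and vomeronasal receptors, 10.1% for all gene types, 9.55% without the primary B map and 12.1% without the MEF map. Run edges at which all 3 maps left the late state together were 8.15% at a tolerance of 100 kb and 24.3% at 200 kb. Leaving out each autosome in turn moved none of 57 values of GC content (38.1% to 38.3%), gene starts (2.48 to 3.0 per Mb) and CpG (5.42 to 5.48 per kb). Each such value shares most of its bins with the main value and was set against the spread over autosomes, so it could hardly move. Of 104 alternative values of list shares 9 moved, all with a map left out. Leaving out a map relaxes the selection, so a share, of genes or of bins, could then only rise or stay. Without the MEF map, the prolactin family reached 61.5%, neuronal adhesion molecules 68.8%, cadherins 52.2% and fibroblast genes 21.4%. The alternatives on repeat share were not run, since the genome file marks no repeats.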

Other observations

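Families grouped by the stem of their name, chosen after the values were seen, held further clusters in the late-in-all bins. Their shares stand beside the 7.73% of all protein-coding genes. All 12 Defa genes, antimicrobial peptides of intestinal Paneth cells, started there, as did 16 of 18 Lce genes for late cornified envelope proteins of the skin. So did 10 of 15 Slco genes for organic anion transporters, 9 of 17 Sult genes for sulfotransferases and 9 of 21 Ugt genes for glucuronosyltransferases. Of 41 Defb genes, the beta defensins, 6 did. Other clustered families had no gene there, among them Sprr (0 of 16), Klk (0 of 27) and Serpina (0 of 22). Their Wilson upper bounds, 19.4%, 12.5% and 14.9%, lie above 7.73%, so these families are too small to be set apart from all genes.

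Of the gene segments that the annotation types as immunoglobulin V, 5 of 355 (1.41%) started in members, against 10.1% of genes of all types. Most lay on chromosomes 6, 12 and 14, and segments of a locus lie together, so they are few locations. The type also covers chromosomes that hold T cell receptor loci, so it is not a list of immunoglobulin genes alone. On chromosome 6, which holds the kappa light chain and the T cell receptor beta loci, 113 of 124 were late in MEFs, 26 in CH12 and 7 in primary B cells. On chromosome 12, where the heavy chain locus lies, 102 of 112 were late in MEFs, 85 in CH12 and 0 in primary B cells. On chromosome 14, 0 of 108 were late in MEFs, 79 in CH12 and 11 in primary B cells.

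On the X chromosome, which the selection left out, 3749 of 8138 bins (46.1%) were late in all 3 maps. Of 3785 autosomal bins made only of unknown bases, 97 carried late numbers in all 3 maps, and 381 carried one in MEFs.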
